A study of Mus musculus with 2 samples.

Results

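The genes described here are 9 tendon and ligament genes, *Scx*, *Mkx*, *Tnmd*, *Thbs4*, *Angptl7*, *Cilp*, *Cilp2*, *Kera* and *Myoc*, chosen by symbol among the 19430 genes named in the count tables, and all 9 were found. They were followed over the spots of 2 Visium sections cut through 1 paraffin block. The block held the distal tibia fracture calluses of 1 control mouse, Nf1+/flox without Cre, and 1 Postn-cre;Nf1 flox/- littermate, called Nf1Postn here, both females operated on at 8 weeks of age and collected 10 days after a fracture held by an intramedullary pin. In Nf1Postn mice, Cre under the periostin promoter removes the floxed *Nf1* allele from periosteal and other *Postn*-expressing cells, and every other cell of the mouse carries 1 germline null allele. The control also carries a floxed allele, which stays intact without Cre. Formalin fixation was followed by 3 days of decalcification in 14% EDTA. The labels number the sections as biological replicates, but each section contains the same 2 animals, so each genotype is 1 mouse, and nothing was tested. Values are therefore given for each section and callus, and all intervals are exact 95% intervals that cover counting error only.

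Tendon and ligament cells arise from progenitors that express the transcription factor *Scx*, and the homeobox factor *Mkx* acts with it to maintain collagen fibrils. *Tnmd*, a membrane glycoprotein, is the usual marker of the differentiated tendon cell. *Thbs4* encodes a pentameric matrix protein of tendon and muscle junctions, *Cilp* and its paralog *Cilp2* encode secreted proteins of cartilage and of fibrous tissue under load, and *Kera* encodes the small leucine-rich proteoglycan keratocan. *Angptl7*, a secreted angiopoietin-like protein, and *Myoc*, secreted myocilin, are known best from the eye and are also expressed in ligament, tendon sheath and other dense connective tissue. In bulk sums over a callus, fewer cells of a type and less RNA per cell cannot be told apart, and a spot, 1 of a grid with centers 100 µm apart, can hold several cells.

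The sections held 6380 spots under tissue, of which 5 had no genotype and were left out of comparisons. The depth was 13562254 unique molecular identifiers (UMIs) in the control and 3462224 in the Nf1Postn callus of section 1, and 12122419 and 5984157 in section 2. Shallow spots with under 1000 UMIs made up between 45 and 215 spots of a callus. The sections share 2711 spot barcodes, since every capture area carries the same grid. *Nf1* itself was at 87.8 CPM (UMIs of a gene scaled to a common total of UMIs, CPM being the usual per-million unit) in the control and 65.6 in the Nf1Postn callus of section 1, and at 79.0 and 49.6 in section 2. Whether its probes lie in the deleted exons is not given, so this does not check the deletion. The Nf1Postn callus carried more muscle RNA, since the summed level of 9 mature muscle genes was 18023 CPM in control against 80494 in Nf1Postn in section 1, and 28634 against 141232 in section 2. Cartilage markers ran the other way, from 48959 to 4397 CPM in section 1 and from 30644 to 8744 in section 2. Of 97 listed markers of muscle, cartilage, bone, marrow, vessel, nerve, skin and other tissues, 95 were in the tables, and 0 of these lacked a UMI in any callus. The part of tissue composition in the differences between calluses below was not tested, except that values without muscle-rich spots are given.

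*Angptl7* and *Tnmd* are the members that differed most between the calluses in opposite directions, and the bases before their start sites are shown for that reason. RefSeq promoter windows (table build GRCm38.p6) were given for 7 of the 9 members, and those of *Angptl7* and *Tnmd* matched the GRCm39 genome exactly once. Capitals mark the E-box CANNTG, the core motif of basic helix-loop-helix factors such as Scx, searched on both strands, which for this palindrome are the same.
Angptl7 upstream bases, chr4:148584920-148585169, minus strand: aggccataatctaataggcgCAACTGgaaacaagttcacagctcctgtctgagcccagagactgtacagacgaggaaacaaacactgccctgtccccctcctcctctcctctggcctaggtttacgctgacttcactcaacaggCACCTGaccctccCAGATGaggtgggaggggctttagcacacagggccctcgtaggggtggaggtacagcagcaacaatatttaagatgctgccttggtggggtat
Tnmd upstream bases, chrX:132751507-132751728, plus strand: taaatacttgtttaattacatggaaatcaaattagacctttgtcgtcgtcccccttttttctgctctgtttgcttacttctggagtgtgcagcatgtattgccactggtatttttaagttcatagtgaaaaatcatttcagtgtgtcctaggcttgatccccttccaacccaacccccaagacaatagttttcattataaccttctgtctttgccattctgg
The *Angptl7* window held 3 E-boxes and that of *Tnmd* 0 in the 250 bases before the start, of which 28 that the deposited gene coordinates already count as *Tnmd* are not printed. Among 32851 promoters, 66.2% held at least 1 E-box and 12.2% at least 3 in the same 250 bases. A match of letters is not a site of binding, and its absence says nothing about a factor.

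*Angptl7* (ENSMUSG00000028989, chromosome 4, 148579640 to 148584918) stood apart from the other members in the comparison of calluses. It was at 12.3 CPM (10.5 to 14.3) in the control and 58.1 (50.3 to 66.7) in the Nf1Postn callus of section 1, and at 25.9 (23.1 to 28.9) and 187 (177 to 199) in section 2. Both Nf1Postn values were above both control values. The log2 ratio of Nf1Postn over control was 2.24 (1.93 to 2.54) and 2.85 (2.67 to 3.04), or 4.71-fold and 7.23-fold, and by the ratio over both sections *Angptl7* had rank 10 of 11851 genes that passed a filter of 50 UMIs per section.

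The 2 cartilage intermediate layer protein genes were higher in Nf1Postn in both sections, each by over 2-fold in 1 of them. *Cilp* (ENSMUSG00000042254, chromosome 9, 65172462 to 65187888) was at 72.8 CPM in control and 228 in Nf1Postn in section 1 and at 153 and 212 in section 2, with log2 ratios of 1.65 (1.51 to 1.78) and 0.46 (0.36 to 0.57). *Cilp2* (ENSMUSG00000044006, chromosome 8, 70333019 to 70340338) was at 44.0 against 63.5 CPM in section 1 and 63.4 against 142 in section 2, with log2 ratios of 0.53 (0.30 to 0.76) and 1.17 (1.02 to 1.31). The larger difference thus lay in section 1 for *Cilp* and in section 2 for *Cilp2*.

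*Tnmd* (ENSMUSG00000031250, chromosome X, 132751729 to 132766327) ran the other way. Its level was 72.3 CPM (67.9 to 77.0) in the control and 47.7 (40.7 to 55.5) in the Nf1Postn callus of section 1, and 121 (115 to 127) and 53.3 (47.6 to 59.5) in section 2. Both control values were above both Nf1Postn values, with log2 ratios of -0.60 (-0.85 to -0.36) and -1.18 (-1.36 to -1.01). *Mkx* was also lower in both Nf1Postn sections, at 14.7 against 22.3 CPM in section 1 and 16.5 against 22.3 in section 2. *Scx* (ENSMUSG00000034161, chromosome 15, 76341652 to 76343659) differed by less than counting error in section 1, at 66.0 CPM in control and 62.1 in Nf1Postn with a log2 ratio of -0.09 (-0.31 to 0.13), and was at 73.2 against 56.6 in section 2, a log2 ratio of -0.37 (-0.55 to -0.19). The RNA of *Scx*, *Mkx* and *Tnmd* was thus level or lower in the Nf1Postn callus, while that of *Angptl7*, *Cilp* and *Cilp2* was higher. The other members with secreted products, *Thbs4*, *Myoc* and *Kera*, were close to level or had no common direction, as given next.

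*Thbs4* (ENSMUSG00000021702, chromosome 13, 92888098 to 92931327) supplied 52.1% of the members' UMIs in section 1 and 53.4% in section 2, so sums over the members follow it. It differed more between sections than between calluses. Its level was 399 CPM in control and 408 in Nf1Postn in section 1 and 658 and 741 in section 2, with log2 ratios of 0.03 (-0.05 to 0.12) and 0.17 (0.12 to 0.23). *Myoc* (ENSMUSG00000026697, chromosome 1, 162466724 to 162477263) gave no common direction, with 40.4 CPM in control and 36.4 in Nf1Postn in section 1 but 53.1 and 93.4 in section 2. *Kera* (ENSMUSG00000019932, chromosome 10, 97442741 to 97449555) had 101 UMIs in all, between 1.16 and 5.18 CPM in a callus. Its interval of the ratio included 0 in both sections.

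**Figure D1:**
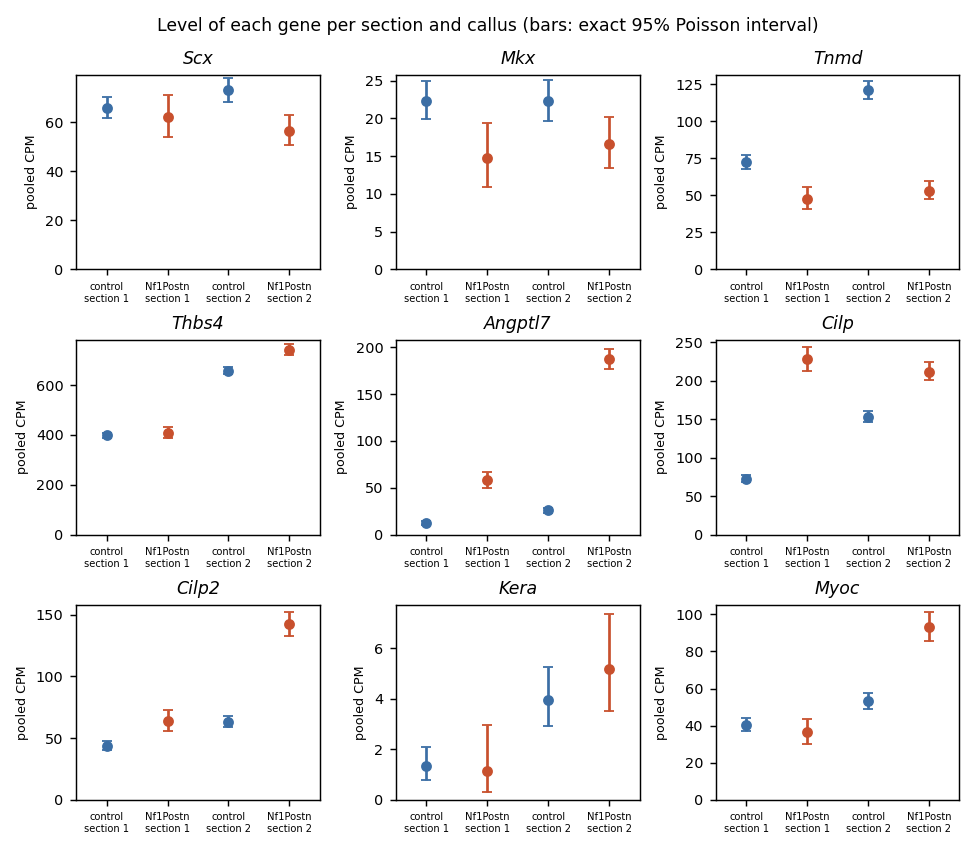
Pooled level of each of the 9 genes in CPM (vertical axes start at 0) in the control (blue) and Nf1Postn (orange) callus of each section, with exact 95% Poisson intervals. For Angptl7 and Cilp both Nf1Postn points lie above both control points, for Tnmd and Mkx both lie below, and Thbs4 differs mainly between sections.

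Of the 9 members, 8 passed that filter, and 1 of them, *Angptl7*, was at least 2-fold higher in Nf1Postn in both sections, where 4.21% of 11851 genes were. At least 2-fold lower in both were 0 members and 1.58% of genes, and 5.79% of genes were apart either way. The median log2 ratio over the 9 members was -0.09 in section 1 and 0.39 in section 2, beside 0.056 and -0.20 over all genes past the filter. Pooling the sections gave 0.53, above both, as the sections then weigh by their depth in each callus. In section 2 and pooled, the median was the ratio of *Kera*, which had 101 UMIs and failed the filter. Leaving out the tenth of spots richest in muscle kept *Angptl7* as the member past 2-fold in both sections, at a pooled log2 ratio of 3.11 against 2.90 with all spots. The spots left out were 228 of Nf1Postn and 77 of control in section 1, and 333 and 1 in section 2, so this does not match the calluses for muscle. With the mean of log2(CPM + 1) per spot as the level the call of *Angptl7* ended, at 1.04, and *Tnmd* was then the 1 member past 2-fold, lower in both sections. By this measure the median over all genes past the filter was also lower, at -0.57 against -0.094 with pooled counts. Nf1Postn spots had a median of 2030 and 3240 UMIs in sections 1 and 2, and control spots 7053 and 5718.5. The part of depth in this shift was not tested. With section 2 alone *Cilp2* was also higher and *Tnmd* lower by 2-fold, and with section 1 alone *Cilp* was also higher.

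Other genes of tendon were counted on 3 lists by the same rule, 2-fold in both sections. Among 10 tendon regulators past the filter of 12 listed, *Mstn*, the secreted inhibitor of muscle growth, was higher, at 19.4 against 5.75 CPM in section 1 and 42.4 against 8.00 in section 2. *Eya2*, a transcriptional coactivator, was lower, at 16.8 against 33.8 and 11.7 against 30.3 CPM. The homeobox gene *Six2* was at log2 ratios of 0.80 and 1.58, and *Egr2*, a zinc finger factor of collagen transcription, at 1.26 and 0.62. Of 20 matrix genes, all past the filter, 0 were higher and 2 were lower, namely *Comp*, the thrombospondin of cartilage and tendon, and *Lox*, the collagen crosslinking oxidase. *Comp* was at 6477 CPM in control and 1513 in Nf1Postn in section 1 and at 4473 and 1890 in section 2, and *Lox* at 1061 and 391, and 921 and 285. The matrix genes *Tnc*, with log2 ratios of -0.74 and -1.53, and *Bgn*, with -0.74 and -1.40, were lower by less than 2-fold in section 1. Of 9 sheath and progenitor genes past the filter, *Tppp3*, a marker of the tendon sheath, was higher, at 255 against 112 and 312 against 121 CPM. *Dpp4* was at log2 ratios of 1.53 and 0.80, *Cd55* at 0.88 and 0.82 and *Fibin* at -0.68 and -0.60. The median log2 ratio was 0.39 for the regulators, -0.71 for the matrix list and 0.25 for the sheath list, so the matrix list lay lower in Nf1Postn than the other lists and than the members.

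Across the tissue, each member was spread thinly with a few dense places. Spots with at least 3 member UMIs were 2189 of 3478 (62.9%, 61.3 to 64.5) in control and 1349 of 2897 (46.6%, 44.7 to 48.4) in Nf1Postn. With every spot thinned to 1000 UMIs the order turned, at 10.6% (9.55 to 11.7) of 3350 control and 14.8% (13.4 to 16.2) of 2569 Nf1Postn spots, so the first difference went with depth. After thinning, *Angptl7* was seen in 1.69% of control and 6.22% of Nf1Postn spots in section 1 and in 3.83% and 14.1% in section 2. *Tnmd* was seen in 6.47% and 5.60% in section 1 and in 9.09% and 4.85% in section 2.

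To describe the dense places, the CPM of each spot was summed with that of its neighbors, and the highest 5% of spots of a section were taken for each gene. Connected groups of at least 8 spots are called patches. They were chosen on the genes' own values, so their levels are a description. Places where at least 4 members other than *Kera* were in that class together formed 5 patches, of 12 to 36 spots, 4 of them in the Nf1Postn callus. The positions below are millimeters from the corner of the capture area, x across and y down.

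The largest such place by number of spots was in the same part of the Nf1Postn callus in both sections. In section 1 it covered 20 spots, centered near x 1.45 and y 6.15 mm, and held 70 of the 201 *Angptl7* UMIs (34.8%) of that callus in 1.49% of its spots. In section 2 it covered 36 spots in the same place, with 178 *Angptl7*, 142 *Cilp2* and 499 *Thbs4* UMIs. The same 20 grid positions chosen in section 1 were then read in section 2, whose counts had no part in choosing them. There, *Angptl7* was at 1776 CPM (1448 to 2156) against 172 in the rest of the callus, 10.3-fold, *Cilp2* at 1445 (1151 to 1792), 11.1-fold, and *Thbs4* at 4545 (4010 to 5131), 6.45-fold. *Tnmd* was 6.54-fold higher there, *Myoc* 3.83-fold and *Scx* 3.14-fold, the last from 10 UMIs. Read the other way, 20 of the 36 positions chosen in section 2 held tissue in section 1, where *Angptl7* was at 2436 CPM (1910 to 3063), 65.3-fold over the rest of the callus. *Cilp2* was 25.5-fold over the rest there, *Myoc* 20.3-fold, *Thbs4* 13.4-fold and *Scx*, from 8 UMIs, 4.43-fold. *Tnmd* had 2 UMIs there, at 66.7 CPM (8.08 to 241) or 1.41-fold, so this reading does not show its higher level in both directions. The sections share the barcodes of these positions, and the part of this in the match was not tested.

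The other 2 joint patches of the Nf1Postn callus of section 2 had no counterpart at the same positions of section 1. In the patch of 26 spots, left of the first, *Angptl7* reached 2158 CPM and *Myoc* 1880, or 25.1-fold over the rest of the callus, whereas at the 21 of these positions under tissue in section 1 *Angptl7* was at 59.6 CPM (19.3 to 139), 1.03-fold, and *Myoc*, from 2 UMIs, at 23.8 CPM (2.89 to 86.1). In the patch of 12 spots at x 2.80 to 3.40 mm, *Angptl7* was at 1523 CPM in section 2 and, from 2 UMIs, at 33.6 CPM (4.07 to 121) in section 1. The latter belonged to a stripe of 91 spots rich in *Angptl7* that ran along the callus at about y 5.46 mm, with 340 UMIs, 23.7% of the gene in that section, and with 57 spots in a region led by slow muscle genes. *Cilp2* followed the stripe in patches of 57 and 28 spots, and *Thbs4* had a patch of 30 spots with 493 UMIs near x 3.10 and y 5.54 mm. *Mkx* had patches along the stripe from 4 and 3 UMIs, and *Kera* from 6 and 5. *Tnmd*, *Scx* and *Cilp* had no patch there among their 3 largest. Whether the sections cut the same structure at different depths was not tested.

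Outside the 5 joint patches the difference in *Angptl7* was smaller and still present, at 9.71 against 38.2 CPM in section 1 and 25.9 against 130 in section 2, or 3.93-fold and 5.01-fold. *Thbs4* was then level in section 1 and slightly lower in Nf1Postn in section 2, with log2 ratios of -0.04 (-0.13 to 0.05) and -0.11 (-0.17 to -0.05). *Tnmd* was at a log2 ratio of -0.57 (-0.82 to -0.33) and -1.42 (-1.61 to -1.23).

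The control callus had dense places of *Tnmd* and *Myoc*, and 1 joint patch that also held *Angptl7* and *Cilp2*. *Tnmd* had its largest patch on the surface of the callus facing the Nf1Postn tissue in section 1, with 216 UMIs, 18.8% of the gene in that section, in 51 spots around x 2.65 and y 3.46 mm. In section 2 the largest patch was on the opposite surface, with 298 UMIs in 40 spots around y 1.21 mm. *Myoc* was concentrated at 1 end of the control callus in both sections: 248 UMIs, 36.8% of the gene in section 1, lay in 44 spots around x 5.95 and y 1.69 mm, and 158 UMIs in 15 spots around x 5.85 and y 1.73 mm in section 2. Section 2 had another *Myoc* patch at the opposite end, with 111 UMIs in 27 spots. The joint patch of the control callus lay in this place in section 1 and held 142 *Myoc* UMIs at 2123 CPM, 70.6-fold over the rest, with *Angptl7* at 538 CPM, 55.4-fold and 21.6% of its UMIs in that callus, and *Cilp2* at 912 CPM, 23.0-fold. *Cilp* formed a band on the surface of the Nf1Postn callus that faces the control, with 193 UMIs in 57 spots around x 3.40 and y 3.81 mm in section 1 and 173 UMIs in 37 spots around y 4.24 mm in section 2. *Scx* had no large patch, and its patch with the most UMIs held 33, 2.97% of the gene in section 1.

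**Figure D2:**
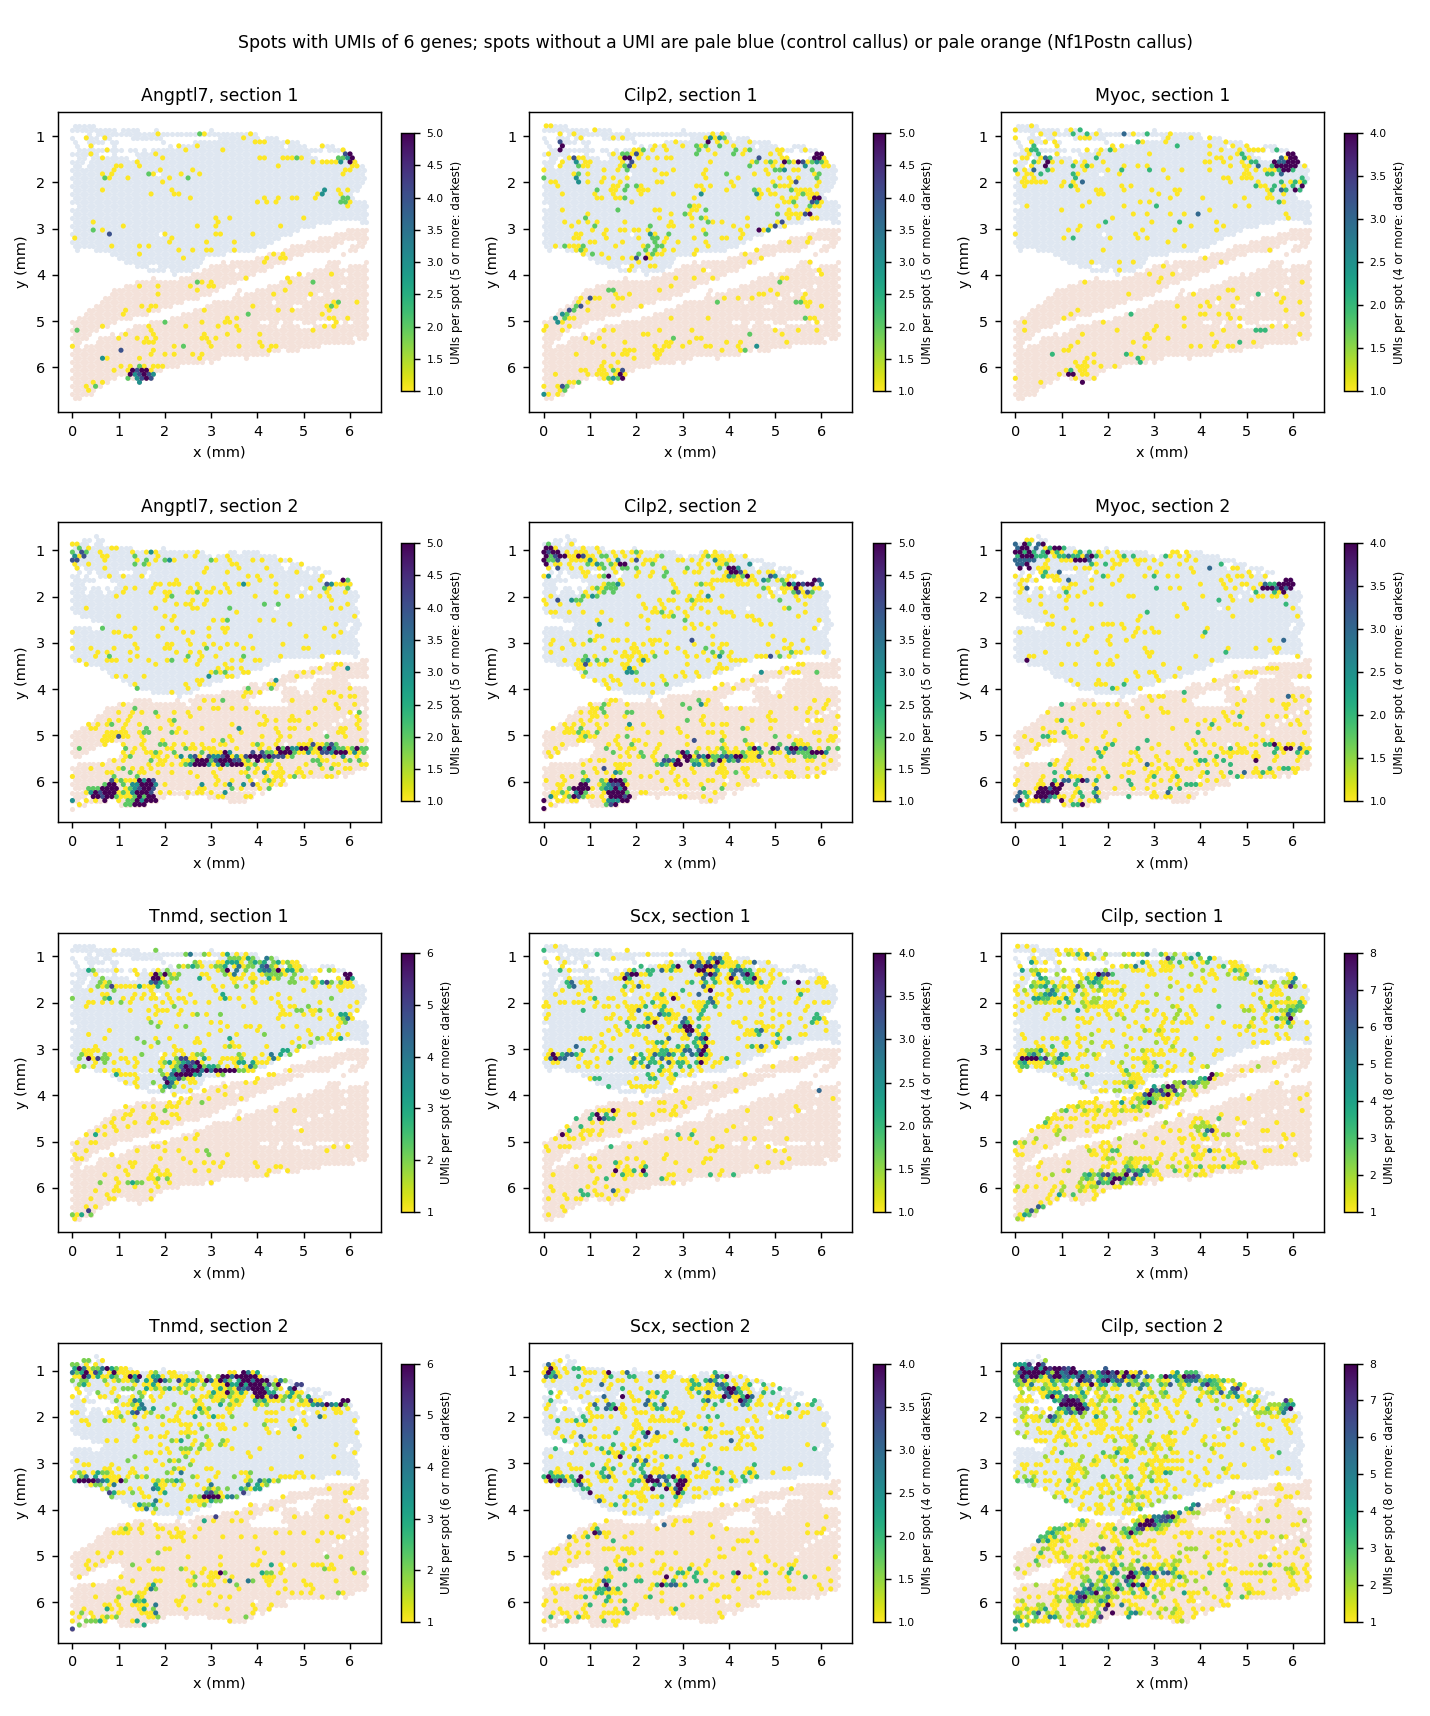
Spots of both sections in millimeters across (x) and down (y) the capture area, colored by UMIs per spot of Angptl7, Cilp2, Myoc, Tnmd, Scx and Cilp, over pale spots without a UMI (blue for control, orange for Nf1Postn). Angptl7 and Cilp2 share a dense place near x 1.2 to 1.8 mm in the lower Nf1Postn tissue of both sections and a stripe in section 2 alone. Myoc has many UMIs per spot at the right end of the control callus, in counts not scaled by depth, and Scx is scattered.

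The joint patches were also described by markers of other tissues and by other tendon genes. *Chad*, a small leucine-rich repeat protein of cartilage and tendon, was 29.0-fold and 9.69-fold over the rest of the callus in the first patch of sections 1 and 2, *Fmod*, the proteoglycan fibromodulin, 6.52-fold and 6.14-fold, and *Clu*, clusterin, 11.6-fold and 11.1-fold. *Col1a1* differed less, at 1.43-fold and 2.44-fold. Other genes of the same lists were at or below the rest of the callus, among them *Tnc* at 0.463-fold and 1.00-fold, *Bgn* at 0.597-fold and 0.940-fold, *Col12a1* at 0.593-fold and 0.749-fold and *Pdgfra* at 0.562-fold and 0.723-fold. These examples were chosen after their values were seen. The summed synovium list was 2.67-fold and 3.06-fold over the rest, while cartilage markers were at 0.694-fold and 0.474-fold and mature muscle at 0.742-fold and 0.604-fold. In the control patch, adipose markers were 5.38-fold and nerve markers 3.07-fold over the rest.

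Regions were then drawn by clustering spots on the expression of 16763 genes, with the members and all listed genes left out, which gave 12 regions. Summed over the members, the level was highest in region 8, a set of 441 spots with 81 and 84 spots in the control and Nf1Postn callus of section 1 and 149 and 125 in section 2. Its summed level was 3160 CPM, and it held 4.63% of the members' UMIs in 1.52% of all UMIs. Its leading genes over all other spots were *Angptl7*, *Cilp2*, *Mepe*, *Myoc*, *Sost*, *Hbb-bt*, *Chad*, *Clu*, *Prg4* and *Hbb-bs*, which include genes of osteocytes and of red cells beside those of tendon and joint. Its median depth was 1163.5 UMIs a spot, and it was left without a tissue name.

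Region 8 was chosen for its summed member level, so the members' levels in it restate that choice. In region 8, 4 of 8 members past the filter, *Thbs4*, *Angptl7*, *Cilp2* and *Myoc*, were at least 2-fold over all other spots in both sections, where 6.44% of 11852 genes were. *Angptl7* was at 541 CPM (480 to 607), 12.3-fold over the other spots, *Cilp2* at 370 (320 to 425), 5.71-fold, *Myoc* at 231 (192 to 276), 4.56-fold, and *Thbs4* at 1570 (1465 to 1680), 2.95-fold. *Scx*, *Mkx*, *Tnmd* and *Cilp* were between 1.10-fold and 1.75-fold. From the other lists 1 of 10 regulators, *Six2*, 1 of 20 matrix genes, *Chad*, and 2 of 9 sheath genes, *Prg4* and *Clu*, passed the same rule there.

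Of the other members, *Mkx* was also highest in region 8, below 2-fold over the other spots, and the rest were highest elsewhere. *Tnmd* was highest in region 9, at 164 CPM, a region led by nerve sheath, perineurial and fat genes such as *Cadm4*, *Cldn1* and *Adipoq*, and next in region 3, at 130 CPM, a control region led by *Sfrp2*, *Fbn2* and *Col8a2* that held 49.4% of its UMIs. *Cilp* was highest in region 9, at 380 CPM, and in region 5, at 343, which was led by embryonic muscle genes such as *Myh8* and *Myh3*. *Scx* was at 98.1 CPM in region 6, led by *Mmp3* and *Il1rn*, and at 88.7 in region 3, and varied least, by 2.98-fold between the highest and lowest region, with region 12 left out for its depth. *Angptl7* varied most, by 62.4-fold. The lowest levels of *Angptl7*, 8.67 CPM, of *Cilp*, 41.2, and of *Myoc*, 12.1, were in region 10, led by cartilage genes such as *Col2a1* and *Ihh*.

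**Figure D3:**
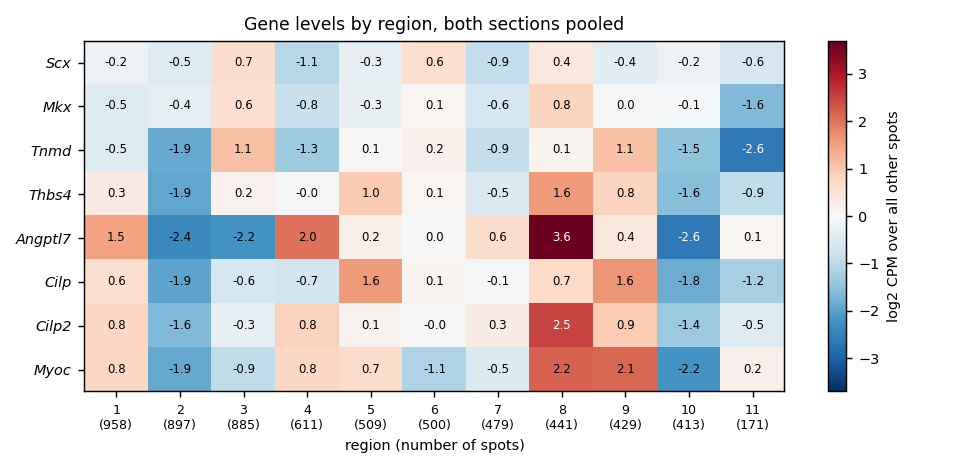
Log2 level of 8 genes (rows, Kera left out for its few UMIs) in each of 11 regions (columns, with their number of spots) relative to all other spots, both sections pooled; region 12, the shallowest, is left out. Angptl7, Cilp2, Myoc, Thbs4 and Mkx are highest in region 8, and Tnmd is about equally high in regions 3 and 9, at 1.08 in both. Region 10, led by cartilage genes, is low for all but Scx and Mkx.

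Within regions that held at least 20 spots of each callus in both sections, the calluses were compared again, which gave 33 values of a member in a region past the filter. Of these, 2 were at least 2-fold higher and 6 at least 2-fold lower in Nf1Postn in both sections. Over all genes past the filter, the share higher in both was 0.252% in region 1, 0.208% in region 3, 0.105% in region 5, 0.124% in region 6, 0.568% in region 8 and 0.471% in region 9, and the share lower in both was 0.184%, 0.709%, 0.610%, 0.498%, 0.568% and 0.494% in the same order. In region 8, *Angptl7* had 2 UMIs in the control and 72 in the Nf1Postn spots of section 1, and 10 and 204 in section 2, or 21.0 against 663 CPM and 65.4 against 1169. The log2 ratio was 4.98 (3.07 to 8.05) and 4.16 (3.25 to 5.24). Nearly all *Angptl7* UMIs of this region thus lay in its Nf1Postn spots. The gene passed the filter there through those spots, so its call is a description. Of the first joint patch of Nf1Postn, 19 of 20 spots in section 1 and 27 of 36 in section 2 lay in region 8. That patch was chosen on the members' own values, and the Nf1Postn level of *Angptl7* in region 8 in part repeats it. In the other regions the ratio was uneven: Nf1Postn over control was 1.02-fold and 9.44-fold in sections 1 and 2 in region 1, 0.828-fold and 1.81-fold in region 3, 1.51-fold and 4.70-fold in region 5, 0.252-fold and 2.95-fold in region 6 and 0.561-fold and 1.40-fold in region 9. Outside region 8, *Angptl7* was thus not 2-fold higher in both sections in any region compared, and in section 1 it was lower in regions 3, 6 and 9, where the Nf1Postn spots of regions 3 and 6 held 2 UMIs each. *Angptl7* failed the filter in regions 5 and 6. Regions 2, 4, 7, 10, 11 and 12 had too few spots in some callus and section and were not compared. Among them, region 4 had 52 and 531 Nf1Postn spots in sections 1 and 2 against 20 and 8 in control, and held 57 of the 91 spots of the *Angptl7* stripe. These ratios therefore do not show that the difference was confined to region 8. The other value higher in both was *Cilp* in region 3, at 112 against 54.9 and 291 against 134 CPM, among 9597 genes past the filter.

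*Tnmd* was lower in Nf1Postn within region 3, at 25.3 against 108 CPM in section 1 and 44.7 against 170 in section 2, where 0.709% of genes were lower in both. The same held in region 5, at 26.7 against 78.2 and 53.6 against 165 CPM, beside 0.610% of 4753 genes. In regions 6 and 9 *Tnmd* was lower in Nf1Postn in both sections too, without reaching 2-fold in both in region 9 or the filter in region 6. It went the other way in region 8, at 1.31-fold and 2.85-fold from 6 to 26 UMIs, and in section 2 of region 1, at 1.90-fold against 0.612-fold in section 1. The lower level of *Tnmd* was thus present within some regions and not in others, and region 3 held only 23 and 46 Nf1Postn spots and 7 and 20 *Tnmd* UMIs in them. *Myoc* was lower in region 5, at 28.6 against 103 and 56.7 against 121 CPM. In region 9, where 0.494% of 4454 genes were lower in both, *Myoc* was at 19.7 against 301 and 97.6 against 282 CPM, *Thbs4* at 405 against 913 and 699 against 1628, and *Cilp2* at 55.0 against 115 and 106 against 217. Of the 13 spots of the control joint patch of section 1, 10 lay in region 9. That patch was chosen on the members' own values and was dense in *Myoc*, so the control level of section 1 in part repeats it. Except for *Thbs4*, the members called lower in regions 3, 5 and 9 passed the filter in section 1 only through their control spots. Those calls are therefore descriptions. *Cilp2* and *Myoc* went the other way in region 8, below the filter there: *Cilp2* had 4 and 42 UMIs in section 1 and 12 and 139 in section 2, and *Myoc* 5 and 19, and 9 and 90. Sums over a callus join these opposite differences.

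**Figure D4:**
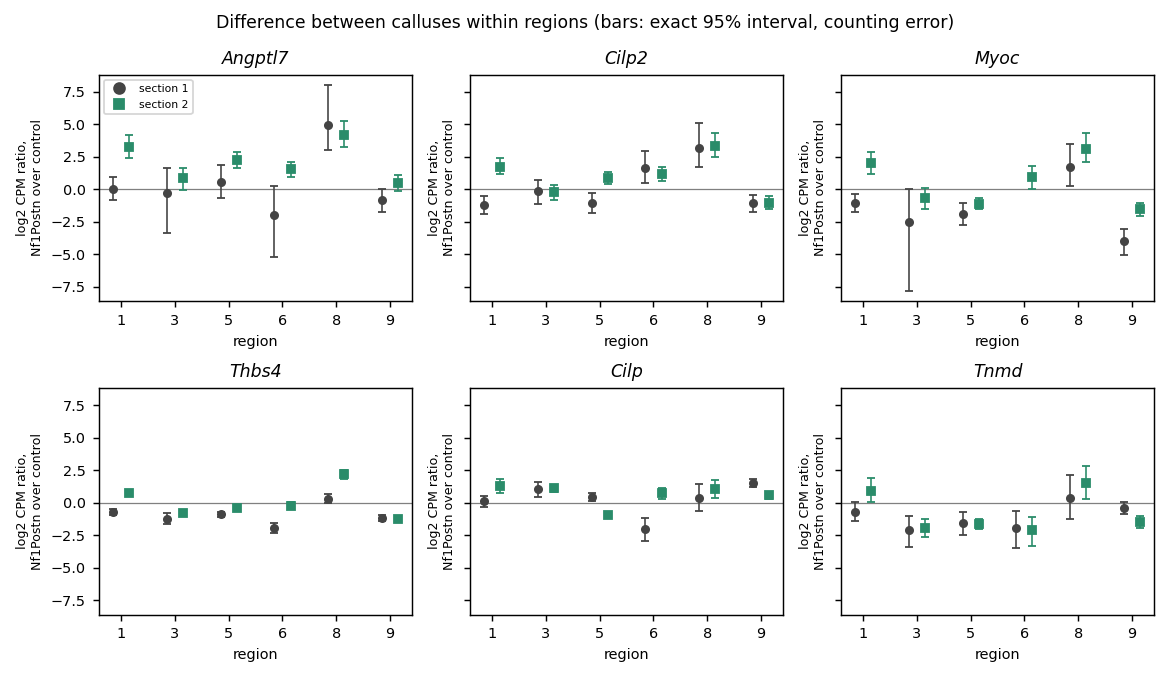
Log2 CPM ratio of Nf1Postn over control within 6 regions for 6 genes, with section 1 as circles and section 2 as squares and exact 95% intervals for counting error; points with 0 UMIs on a side are not drawn. In region 8 Angptl7, Cilp2 and Myoc lie above 0 in both sections, in region 9 Myoc, Thbs4 and Cilp2 lie below, and Tnmd lies below 0 in regions 3, 5, 6 and 9.

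In the control callus, which held most of the cartilage, the members were ordered by distance from the tenth of spots richest in cartilage markers. *Thbs4* was higher in each step away from cartilage, from 127 CPM in the cartilage-rich spots to 701 in the farthest in section 1, and from 194 to 1530 in section 2. *Cilp* did so as well, from 28.1 to 179 and from 40.5 to 515 CPM, and *Myoc* was 29.8-fold and 30.3-fold higher in the farthest spots. *Angptl7* had 1 UMI, or 0.720 CPM, in the cartilage-rich spots of section 1 and 37.5 in the farthest, against 21.4 and 53.2 in section 2. *Tnmd* was lowest in the cartilage-rich spots, 34.6 and 50.04 CPM, and already at 74.3 and 142 in spots up to 350 µm away. *Scx* and *Mkx* showed no such gradient, since the farthest spots were at 1.11-fold and 1.15-fold of the cartilage-rich spots for *Scx* and 0.998-fold and 1.02-fold for *Mkx*. The farthest step held 402 spots in section 1 and 87 in section 2.

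**Figure D5:**
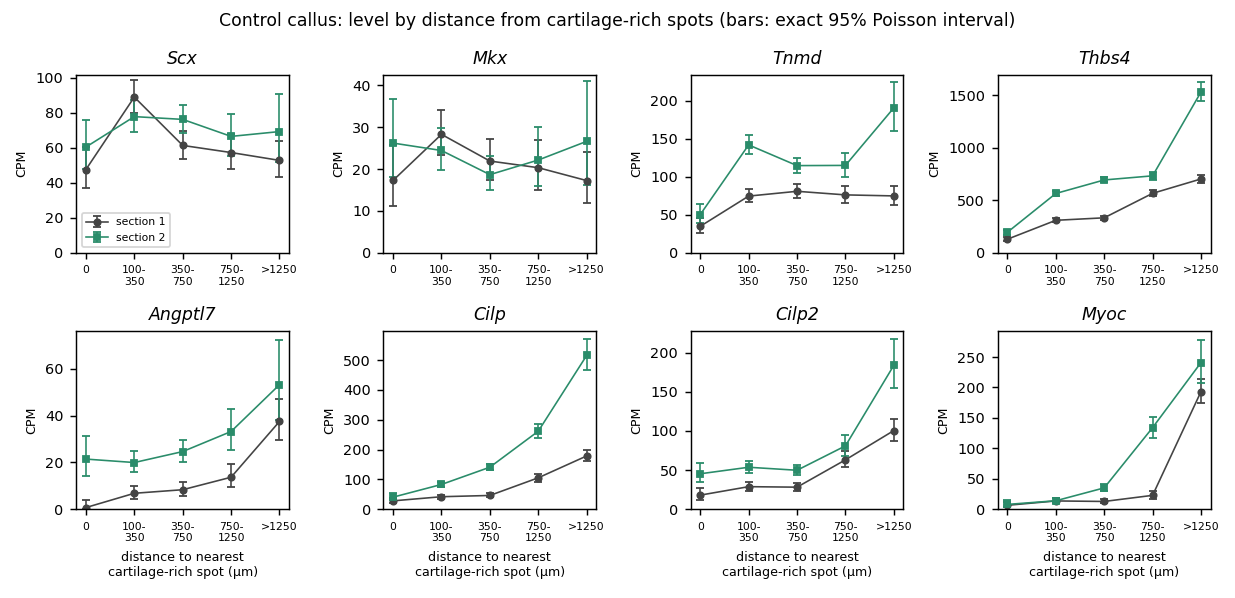
Level of 8 genes in the control callus (CPM, axes from 0) by distance to the nearest cartilage-rich spot in micrometers, for section 1 (circles) and section 2 (squares), with exact 95% Poisson intervals. Thbs4, Cilp, Cilp2, Angptl7 and Myoc are highest in the farthest spots of both sections, whereas Scx and Mkx stay within a narrow range.

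Muscle was approached in the same way, with the tenth of spots of a section richest in mature muscle markers. Member UMIs lay at a median of 1411 µm from such a spot, beside 1277 µm for all spots, which are not weighted by UMIs. The distance followed the callus: it was 1652 and 2163 µm in control and 529 and 265 µm in Nf1Postn. Muscle-rich spots were chosen over both calluses of a section, 77 in control and 228 in Nf1Postn in section 1, and 1 and 333 in section 2. The nearest one could thus lie in the other callus, so these distances do not place UMIs relative to the muscle of their own callus. All UMIs of these calluses, weighted alike, lay at 1700, 2138, 529 and 173 µm, and all spots at 1572, 2080, 520 and 300 µm. Beside all UMIs, the members lay nearer to muscle in section 1 control, farther in section 2 Nf1Postn and about level in the others. The sum over the members follows *Thbs4*, and single members went both ways. In section 1 Nf1Postn, *Tnmd* lay at 1015 µm, *Scx* at 872, *Cilp* at 794 and *Myoc* at 346, and in section 1 control *Myoc* lay at 2261 µm. Close to muscle there was a step. All 8 members other than *Kera* were lower in muscle-rich spots than in spots up to 350 µm away in the control callus of section 1 and in both Nf1Postn calluses, the 3 that held over 1 muscle-rich spot. For *Thbs4* the levels were 451 against 1018, 296 against 535 and 412 against 1107 CPM, and for *Angptl7* in section 2 Nf1Postn 63.4 against 315. The 9 listed mature muscle genes took between 23.0% and 26.2% of UMIs in those muscle-rich spots. With the UMIs of these 9 genes removed from the totals the order held for 8, 7 and 8 of the 8 members, with *Scx* in section 1 Nf1Postn as the exception. Other muscle genes stayed in the totals, so this does not take out all muscle RNA. The share of all genes with this order was not counted, so the step is not shown to be particular to the members.

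Spots within 200 µm of the tissue edge held 24.1% and 30.8% of all UMIs of the control callus in sections 1 and 2. For *Myoc* they held 53.8% and 61.8%, for *Thbs4* 44.7% and 48.4%, and for *Scx* 23.0% and 28.9%. In the Nf1Postn callus the edge held 47.8% and 31.6% of all UMIs, and *Angptl7* was close to this, at 49.8% and 27.3%. *Tnmd*, the membrane protein, had 39.6% and 45.3% of its UMIs there in control, and *Mkx* 26.1% and 38.9%. In control, *Scx* was thus the 1 member of 8 whose share at the edge was below that of all UMIs. In Nf1Postn, 6 of 8 members had a larger share at the edge than all UMIs in section 1, and 3 of 8 in section 2. There, *Thbs4* was at 55.9% and 25.5% in sections 1 and 2, and *Mkx* at 41.2% and 13.1%.

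How far single UMIs of a gene lay next to each other was read from the spots adjacent to each UMI. For *Myoc* in the control callus the level in adjacent spots was 21.0-fold the mean of the callus in section 1 and 8.09-fold in section 2. For *Angptl7* in Nf1Postn it was 8.87-fold and 3.87-fold, for *Cilp2* 3.34-fold and 3.46-fold, and for *Scx* 1.43-fold and 1.75-fold. In the other callus it was 3.16-fold and 4.17-fold for *Myoc* and 6.46-fold and 1.91-fold for *Angptl7*. The UMIs of *Myoc*, and those of *Angptl7*, were thus grouped in both calluses. Those of *Scx* were grouped less, between 1.43-fold and 1.75-fold over sections and calluses. The 1.91-fold of *Angptl7* in the control callus of section 2 was close to the upper of these values.

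Over single spots the members varied little with each other. The median correlation of log2(CPM + 1) over the 36 pairs was 0.088, from 0.027 to 0.22, over 3041 and 3334 spots that share library, section and depth, and in counts this sparse a weak correlation is no finding. The most alike pair was *Angptl7* and *Cilp2*, at 0.16 and 0.28 in the 2 sections, followed by *Thbs4* with *Cilp* and *Tnmd* with *Thbs4*, both at a mean of 0.21. Among all genes with at least 200 UMIs, *Cilp2* was the nearest to *Angptl7* and *Angptl7* the nearest to *Cilp2*. The gene nearest to *Tnmd* was *Sfrp2*, a secreted Wnt antagonist, at 0.30, followed by *Ccn3*, *Abi3bp*, *Mfap4* and *Col14a1*. *Scx* was nearest to *Chpf* (0.24), *Cthrc1*, *P3h4*, *Sec61b* and *Scarf2*, *Cilp* to *Clec3b* (0.25), *Eln*, *Igfbp6*, *Cd74* and *Col3a1*, and *Thbs4* to *Igfbp4* (0.25), *Angptl1*, *Clec3b*, *Fndc1* and *Ccn3*. *Myoc* was nearest to *Thbs4* (0.16), *Angptl7*, *Cilp*, *Cilp2* and *Tnxb*, *Cilp2* next to *Fmod* (0.20), *Chad*, *Thbs4* and *Dcn*, and the highest value with any gene was 0.154 for *Mkx*, with *Col8a2*, and 0.068 for *Kera*, with *Angptl7*.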

How the data were processed

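Fixed-tissue Visium libraries of 2 sections were used. The authors ran Space Ranger 1.3.0 on mm39, per the labels, and exported UMI counts for each gene and spot, not normalized, from Partek Flow. These deposited values were used under the name of estimated counts, since 9 named entries, no member among them, were not whole, and were rounded only where counts were thinned. The entry that names no gene held 6.81e-05% and 3.76e-05% of UMIs and was left out. The authors' labels of genotype and Space Ranger's positions were used as deposited. How the border between calluses was drawn is not given in the sources used here.

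Counts were summed per section and callus and divided by total UMIs (CPM), with Poisson, Clopper-Pearson and conditional binomial intervals. Genes needed at least 50 UMIs in each section for a call. Regions came from log2(CPM + 1), 20 principal components, 15 neighbors and Leiden clustering at resolution 0.5 (leidenalg 0.10.2, scanpy 1.11.5). TMM factors (edgeR 4.0.16) and DESeq2 1.42.0 size factors served as alternatives. Each member was named, with the 5 genes nearest to it, the 10 leading genes of region 8 and up to 4 genes of each other tendon list by the size of their ratio. Where leading genes of other regions or genes of the patches are given, they were picked after their values were seen. Of 200 genes changed 4-fold in simulated sums, 200 were called, and 0 of 11735 others. The sums were Poisson counts at the same rate in both sections, and the changed genes were expected at 50 or more UMIs in each callus. The simulation thus checks the code and says nothing about differences between animals, sections or tissues. The members and lists were chosen with earlier results of these data known, and patches, edges and distance bins were set after seeing the data. The supplementary values of the paper were not used.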

Additional observations from a re-analysis of the deposited data

Results flagged for a closer look

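Differences between regions in the direction of a member's ratio were singled out where it was at least 2-fold in both sections of each region, with at least 10 UMIs of the gene per section. None of these differences was tested. For *Cilp2*, the mean log2 ratio of Nf1Postn over control in region 8 exceeded that in region 9 by 4.32, and the mean in region 6 exceeded that in region 9 by 2.49. For *Myoc*, region 8 exceeded region 9 by 5.16 and region 5 by 3.91. Region 8 held 19 of the 20 spots of the Nf1Postn joint patch of section 1. Region 9 held 10 of the 13 spots of the control joint patch of that section. These patches were chosen on the members' own values. In section 1 the control spots of region 8 held 4 *Cilp2* and 5 *Myoc* UMIs, and those of region 6 held 9 *Cilp2* UMIs.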

How the results depend on the processing

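With 1 mouse per genotype, no alternative replaces another animal, and depth limits *Kera* and *Mkx* most. No paired analysis was possible because both sections hold the same 2 mice and no result comes from a test. The count of members at least 2-fold apart in both sections was 1, and again 1 under each alternative that kept both sections, but the member was *Tnmd* in place of *Angptl7* with the mean per spot. It was between 2 and 3 with 1 section left out. The median log2 ratio of the members was between -0.088 and 0.39 with 1 section left out and -0.025 by the mean per spot. Both 0.39 and -0.025 were the ratio of *Kera*, which failed the filter. By the mean per spot the median over all genes past the filter was -0.57, against -0.094 with pooled counts. The share of spots with at least 3 member UMIs was between 59.6% and 66.1% in control and between 31.8% and 59.3% in Nf1Postn with 1 section left out. It was 10.6% and 14.8% after thinning, 42.2% and 25.9% at 5 UMIs, 38.2% and 25.8% without *Thbs4*, and 76.9% in control at 2 UMIs. The median correlation was 0.149 with adjacent spots summed and 0.0297 after thinning. The median distance to muscle was 608 µm when more spots of a section were taken as muscle-rich and 436 µm when they were taken in each callus. The choices without *Thbs4*, without the joint patches, without muscle-rich spots and by callus were added after seeing the data. The share of member UMIs in the region with the highest member level stayed between 3.85% and 5.07%, but that region was drawn anew with other clusterings, and with all genes kept it was 112 spots at 8587 CPM in place of 441 spots at 3160 CPM. Of 90 member ratios under alternatives, 83 kept their sign. Those without a filter on low genes repeat the main values and could not change sign. TMM and DESeq2 size factors each shift the pooled ratios of all members by a common amount.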
